A study of Mus musculus with 23 samples.

Results

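The mouse miR-29 family comprises 3 mature microRNAs, miR-29a-3p, miR-29b-3p and miR-29c-3p. Its members were taken by their identifiers (MIMAT0000535, MIMAT0000127 and MIMAT0000536) from a NanoString nCounter panel of 602 microRNA probes. Membership follows the family and not a measured value, but earlier results of these data were known when it was chosen. The nCounter assay counts colour-barcoded probes bound to individual microRNA molecules, with no amplification. RNA came from 2 cell populations sorted from lungs of wild-type (WT) C57BL6 mice, with no treatment agent or altered allele named for any group. These were endothelial cells (EC; the descriptions give CD31, a surface protein of endothelium) and type II pneumocytes (AT2; CD326, also called EpCAM, a surface protein of epithelium). EC line the blood vessels and AT2 cells make surfactant. Every CD326 sample is called AT2 here, as in the titles, also those from before birth. Whether the mix of epithelial cells in them changed with age was not tested. The 6 ages ran from embryonic day 16.5 (E16.5) through E18.5 and postnatal day 1 (P1) to P7, P14 and P28. The 13 AT2 samples comprised 3 at P28 and 2 at every other age, and the 10 EC samples comprised 1 each at E18.5 and P1 and 2 at every other age. Whether a sample was 1 animal or a pool is not given in the labels, and nothing there says that samples of a group came from separate animals. The p-values are therefore p-values over samples, and that spread may be technical in part.

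MicroRNAs guide the silencing complex to messenger RNAs that carry a match to their seed, which are bases 2 to 8 from the 5′ end, and lower the translation or stability of those messages. Known targets of the miR-29 family include fibrillar collagens (Col1a1, Col3a1), elastin (Eln) and the DNA methyltransferases Dnmt3a and Dnmt3b. In lung the family is known mainly for restraining matrix production, and its loss has been tied to fibrosis. The ages sampled span birth and the period in which elastin-rich septa divide the air spaces into alveoli. The targets themselves were not measured in the values used here.

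The 3 mature sequences are shown because the family is defined by them, with the seed in capitals. They come from RefSeq (GRCm38.p6), in which all 3 members were found by name.
miR-29a-3p: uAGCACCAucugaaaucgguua
miR-29b-3p: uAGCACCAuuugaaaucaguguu
miR-29c-3p: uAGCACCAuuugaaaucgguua
The seed AGCACCA is identical in all 3, and its match in a target reads TGGTGCT in DNA letters. Among 1679 mature mouse microRNA names in the RefSeq table, these 3 were the ones with that seed. Counting from 1 at the 5′ end, miR-29c-3p and miR-29a-3p have the same length and differ by 1 base (U10C, the base of miR-29c-3p first). Against miR-29c-3p, miR-29b-3p carries G18A, U21G and A22U and is 23 bases long in place of 22.

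The hairpins are shown because miR-29b-3p is cut from 2 of them, each beside that of another member, with the mature 3p arm in capitals.
Mir29a: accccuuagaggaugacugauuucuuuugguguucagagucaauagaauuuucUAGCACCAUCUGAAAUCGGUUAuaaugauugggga
Mir29b-1: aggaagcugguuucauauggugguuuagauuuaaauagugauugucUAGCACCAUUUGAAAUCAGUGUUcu
Mir29b-2: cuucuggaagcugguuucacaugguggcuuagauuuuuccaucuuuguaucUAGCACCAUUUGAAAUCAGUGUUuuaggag
Mir29c: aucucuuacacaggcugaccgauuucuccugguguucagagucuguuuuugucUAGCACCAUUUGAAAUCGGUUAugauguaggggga
Mir29a (chr6:31062660-31062747) and Mir29b-1 (chr6:31063023-31063093) lie on the minus strand with starts 363 bases apart. They fall between the long noncoding RNA genes Gm40359 and Lncpint, 47717 and 30470 bases away from the nearer hairpin. Mir29b-2 (chr1:195037040-195037120) and Mir29c (chr1:195037547-195037634) lie on the plus strand with starts 507 bases apart, inside the span of the long noncoding RNA gene A330023F24Rik and 1337 bases from the protein-coding gene Cd46. The mature miR-29b-3p of both loci is the same sequence, so its probe value cannot be divided between chromosomes 6 and 1, whereas miR-29a-3p comes from chromosome 6 and miR-29c-3p from chromosome 1.

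Deposited values are nCounter counts multiplied by 1 factor per sample, and the recovered microRNA counts ranged from 26640 to 571706 per sample. A value was called above background when its count exceeded the mean plus 2 SD of the 8 low control rows of that sample, and the 302 microRNAs above background in at least 2 samples were tested, with all 3 members among them. The panel rows carry no microRNA names, so the sorted cell types could not be checked against named endothelial or epithelial microRNAs. Each of the 23 samples correlated best with another sample of its own cell type. EC P14 replicate 2 was nearly as close to AT2 samples (mean r = 0.877) as to other EC samples (mean r = 0.889), and EC P1 replicate 1 came next (0.850 and 0.907). In AT2 P28 replicate 1 the low control rows all stood at 1 count, and in AT2 P28 replicate 3 one microRNA, MIMAT0003484, took 62.8% of the counts. Specimen IDs begin with 15 in 11 samples and with 16 in 12, and the labels do not say what the number stands for. In bulk RNA of sorted cells, fewer cells of a type and less RNA per cell cannot be told apart.

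In AT2 cells miR-29a-3p, the member made from chromosome 6 alone, had its highest group mean at P28 and its lowest at E16.5, with 1 step down, from P1 to P7. Its deposited values were 147 and 106 at E16.5, 248 and 258 at E18.5, and 1319 and 1476 at P1. They were 847 and 1239 at P7, 1968 and 1536 at P14, and 3955, 3632 and 4003 at P28. Every AT2 sample from P1 onward lay above every AT2 sample from before birth, and the 3 samples of P28 lay above all others. Between geometric means, the P28 value was 31-fold that of E16.5.

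In EC miR-29a-3p began near background. The E16.5 values were 48.9 and 33.3, from 16 and 12 counts, and neither exceeded the background limit of its sample. The single E18.5 sample stood at 103, from 13 counts against a limit of 12, and the single P1 sample at 414. Later values were 243 and 321 at P7, 399 and 1382 at P14, and 2323 and 2307 at P28. With the E16.5 samples set to their limits, miR-29a-3p was at least 52.9-fold higher at P28 than at E16.5. The higher P14 value belongs to EC P14 replicate 2, the EC sample nearest to AT2 samples.

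In AT2 cells miR-29b-3p, which can arise from both loci, had values of 72.6 and 98.1 at E16.5, 127 and 151 at E18.5, and 359 and 494 at P1. Values of 405 and 486 followed at P7, 631 and 767 at P14, and 1747, 2151 and 1478 at P28. P1 and P7 overlapped, while the ages before birth lay below all later ones and P28 above all others, and P28 was 21.0-fold over E16.5. In EC it stood at 36.6 and 38.9 at E16.5, from 12 and 14 counts and not above background, and at 143 at E18.5 (18 counts). It was 208 at P1, 116 and 129.65 at P7, 154 and 460.25 at P14, and 822 and 1051 at P28. Both EC values of P7 lay below the single EC value of P1, a step of -0.76 on the log2 scale that did not pass. They also lay below the single E18.5 value, but that order is not settled. The scaled mean of the low control rows was 38.6 in the E18.5 sample, against 7.81 and 12.8 in those of P7. At P28 miR-29b-3p was at least 21.2-fold higher in EC than at E16.5.

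In AT2 cells miR-29c-3p, the member made from chromosome 1 alone, had its largest step between P14 and P28. Its values were 100.3 and 128 at E16.5, 100.03 and 86.7 at E18.5, and 141 and 191 at P1. They then reached 234 and 276 at P7, 566 and 489.55 at P14, and 1405, 1933 and 1646 at P28, which was 14.5-fold over E16.5. From E18.5 on, the values of each age lay above those of the age before.

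In EC miR-29c-3p was the one member above background in every sample. Its EC values were 153 and 302 at E16.5 (50 and 109 counts), 103 at E18.5 (13 counts) and 339.6 at P1. Values of 287 and 357 at P7 and 379 and 417 at P14 stayed close to the P1 value, and P28 stood apart at 1899 and 1935. The P28 value was 8.92-fold that of E16.5.

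**Figure D1:**
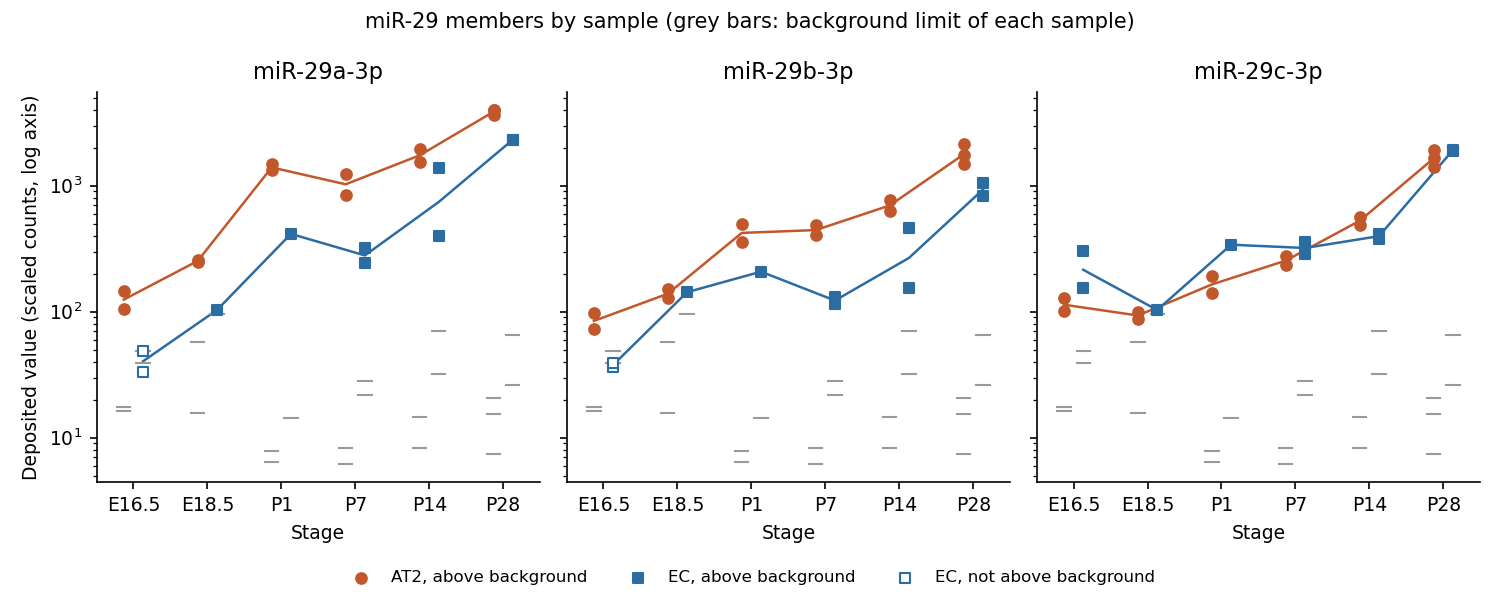
Deposited value (counts times 1 factor per sample, log axis) of each miR-29 member against age, with 1 point per sample (AT2 circles, EC squares, open where not above background), lines through geometric means and grey bars at each sample's background limit. All members reach their highest values at P28, where miR-29a-3p stands between 3632 and 4003 in AT2 cells, and the 4 open squares are miR-29a-3p and miR-29b-3p in EC at E16.5.

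The first comparison asks how the members changed from before birth to the weeks after it, as the mean of P7, P14 and P28 minus the mean of E16.5 and E18.5. In AT2 cells the log2 change was 3.41 ± 0.28 (SE) for miR-29a-3p, 2.91 ± 0.27 for miR-29b-3p and 2.54 ± 0.22 for miR-29c-3p. All 3 passed the test as higher after birth (limma, adjusted p = 3.25e-08, 7.45e-08 and 5.37e-08), against 11.3% of the 302 tested microRNAs called higher in this contrast. The changes held ranks 4, 5 and 10 of 302 from the highest, and the median over all tested microRNAs was -0.64. For each member, every late AT2 sample (n = 7) lay above every early one (n = 4).

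In EC the same contrast gave 3.58 ± 0.33 for miR-29a-3p, 2.07 ± 0.31 for miR-29b-3p and 2.06 ± 0.26 for miR-29c-3p, with a median of -0.57 over all tested microRNAs. All 3 passed the test as higher (limma, adjusted p = 7.00e-07, 7.02e-05 and 1.60e-05), where 9.27% of the 302 were called higher, and ranked 1, 5 and 6. The late EC samples (n = 6) lay above the early ones (n = 3) for miR-29a-3p, while for miR-29b-3p and miR-29c-3p the ranges overlapped. With the early samples below background set to their limits, miR-29a-3p was at least 11.7-fold and miR-29b-3p at least 3.95-fold higher late than early, and miR-29c-3p was 4.20-fold higher. Without EC E18.5 replicate 1, the single sample of its age, the EC changes were 4.25 for miR-29a-3p, 3.02 for miR-29b-3p and 1.54 for miR-29c-3p.

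Within 1 opening number of the specimen ID the EC contrast covers other ages. IDs beginning with 15 set E18.5 (1 EC sample) against P7, P14 and P28, and there the EC changes were 2.62 ± 0.31 for miR-29a-3p, 0.80 ± 0.31 for miR-29b-3p and 2.56 ± 0.32 for miR-29c-3p, of which miR-29b-3p did not pass (limma, adjusted p = 0.000162, 0.0691 and 0.000186). IDs beginning with 16 set E16.5 against P14 and P28, with values of 5.43, 4.17 and 2.06 (limma, adjusted p = 9.98e-06, 4.53e-05 and 0.00397). For miR-29a-3p and miR-29b-3p both early samples of that subset were not above background, so these 2 values rest on background signal and are no exact size. Within IDs of 15 the single early EC sample had 13, 18 and 13 counts of the members against a limit of 12. Those 3 EC changes therefore start near background and are no exact size either. In AT2 cells, where 15 sets E18.5 against P7 and P28 and 16 sets E16.5 against P14 and P28, the changes were 2.96, 2.73 and 2.78 within 15 and 4.39, 3.57 and 3.03 within 16, in the same order of members, and all passed (limma, highest adjusted p = 0.000166).

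Relative to the other microRNAs the rise depends on scaling in size and not in direction. Shifting every sample to the same median moved the median change of all tested microRNAs from -0.64 to 0.24 in AT2 cells and from -0.57 to 0.039 in EC. It moved the calls from 34 higher and 121 lower to 77 and 48 in AT2 cells, and from 28 and 84 to 52 and 23 in EC. The members then changed by 4.30, 3.79 and 3.43 in AT2 cells and by 4.19, 2.68 and 2.67 in EC (miR-29a-3p, miR-29b-3p and miR-29c-3p). Leaving out EC P14 replicate 2, EC P28 replicate 2 and EC P1 replicate 1, among them the 2 EC samples nearest to AT2, the EC changes were 3.28, 1.75 and 2.03. Without AT2 P28 replicates 1 and 3 the AT2 changes were 3.39, 3.0 and 2.62, and all of these passed the test (limma, highest adjusted p = 0.000101).

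**Figure D2:**
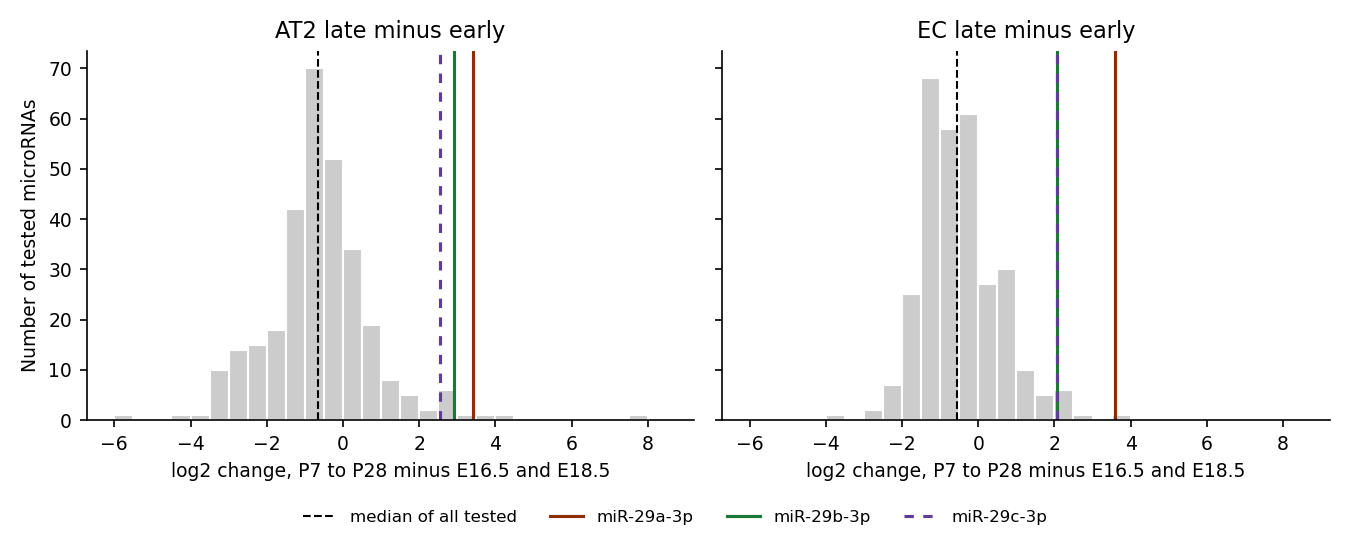
Histogram of the log2 change from E16.5 and E18.5 to P7 through P28 over the 302 tested microRNAs (bars, number of microRNAs), with AT2 cells on the left and EC on the right. Coloured lines mark the members and the dashed black line the median, and the members stand between 2.06 and 3.58 against medians of -0.64 and -0.57, with miR-29b-3p and miR-29c-3p coinciding in EC.

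The change with age did not pass a test of difference between the cell types. The AT2 change minus the EC change was -0.17 ± 0.43 for miR-29a-3p, 0.84 ± 0.41 for miR-29b-3p and 0.48 ± 0.34 for miR-29c-3p (limma, adjusted p = 0.923, 0.317 and 0.580), with 6.29% of the 302 called. With these errors, differences of more than 1 log2 unit in miR-29b-3p lie within 1 SE of the value. Without the 3 EC samples named above, the miR-29b-3p difference was 1.16 ± 0.31 and passed (limma, adjusted p = 0.0259), and without EC P14 replicate 2 alone it was 1.10 (adjusted p = 0.0295). Without EC E18.5 replicate 1 it turned to -0.11 and within IDs beginning with 16 to -0.60 (limma, adjusted p = 0.952 and 0.502), while within IDs beginning with 15 it was 1.93 (adjusted p = 0.0127). The difference for miR-29b-3p therefore has no settled direction, and its early EC values rest on 12, 14 and 18 counts, at or near background.

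Steps between neighbouring ages were also tested for each member, while the difference between members in a step was not. Across birth in AT2 cells, from E18.5 to P1, miR-29a-3p rose by 2.46 ± 0.44 and miR-29b-3p by 1.60 ± 0.42 on the log2 scale (limma, adjusted p = 0.00619 and 0.0276), against 2.65% of the 302 called higher. Over the same step miR-29c-3p changed by 0.81 ± 0.36 and did not pass (adjusted p = 0.124). From P14 to P28 in AT2 cells miR-29c-3p rose by 1.64 ± 0.32 (limma, adjusted p = 0.0124, 0.662% called higher), while miR-29a-3p at 1.15 ± 0.40 and miR-29b-3p at 1.35 ± 0.38 did not pass (adjusted p = 0.126 and 0.0629). Both AT2 samples of E18.5 have IDs beginning with 15 and both of P1 IDs beginning with 16, and with that number as a covariate the steps across birth were 1.90 and 1.18 and no longer passed (limma, adjusted p = 0.150 and 0.369). The miR-29a-3p step also lost its call without AT2 E18.5 replicate 2 (2.38 to 2.54 with 1 sample left out), the miR-29b-3p step without AT2 E18.5 replicate 1, AT2 E18.5 replicate 2 or AT2 P1 replicate 2 (1.37 to 1.83), and the miR-29c-3p step to P28 without AT2 P14 replicate 1 (1.53 to 1.76).

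In EC 2 members passed the test over the last step. From P14 to P28 miR-29b-3p rose by 1.80 ± 0.42 and miR-29c-3p by 2.27 ± 0.36 (limma, adjusted p = 0.0325 and 0.00165), and these were the 2 microRNAs called higher in this step, 0.662% of the 302. The miR-29a-3p step was 1.64 ± 0.44 and did not pass (adjusted p = 0.0559). Both members that passed the EC step to P28 had similar values in the 2 EC samples of P28, 822 and 1051 for miR-29b-3p and 1899 and 1935 for miR-29c-3p. The 2 EC samples of P14 stood apart for miR-29b-3p (154 and 460.25) and miR-29a-3p (399 and 1382). The size of the EC step for these 2 members therefore depends on which P14 sample is kept. Without EC P14 replicate 2 the steps were 2.58 and 2.53, and without EC P14 replicate 1 they were 1.01 and 0.74 and did not pass. The miR-29b-3p step also lost its call without either EC P28 sample, with edgeR, at a common median, with quantile normalization, with sample weights, scaled to the microRNA total and within IDs of 16 (1.19 to 1.86, adjusted p = 0.0611 to 0.447, limma or edgeR). The miR-29c-3p step lost it with sample weights (2.27), scaled to the microRNA total (1.93) and within IDs of 16 (2.21; limma, adjusted p = 0.0640, 0.178 and 0.0677). The EC steps around E18.5 and P1 rest on 1 sample at each of these ages, assumed to vary like the other groups. At E18.5 that sample had 13 counts each of miR-29a-3p and miR-29c-3p against a limit of 12. From E18.5 to P1 miR-29a-3p differed by 2.0 ± 0.63 and miR-29c-3p by 1.71 ± 0.50, and neither passed (limma, adjusted p = 0.0999 and 0.0874).

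The second comparison asks how the members differ between the cell types. Averaged over the 6 ages, miR-29a-3p was higher in AT2 cells than in EC by 1.41 ± 0.19 and miR-29b-3p by 1.05 ± 0.18 on the log2 scale (limma, adjusted p = 5.81e-06 and 7.96e-05), where 19.5% of the 302 were called higher in AT2 cells. For miR-29c-3p the difference was -0.37 ± 0.15 (limma, adjusted p = 0.0408, with 47.7% called lower), but it lost its call under quantile normalization (-0.38), came to -0.024 at a common median and turned to 0.42 when scaled to the microRNA total, so it has no settled direction. The median over all tested microRNAs was -0.43. Of the calls, 29.1% were higher in AT2 cells, against 46.3% at a common median and 72.7% when scaled to the microRNA total. Under the scalings tried, miR-29a-3p stayed between 1.41 and 2.21 and miR-29b-3p between 1.05 and 1.84.

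By age, miR-29a-3p was higher in AT2 cells by 1.60 ± 0.44 at E16.5 and 1.87 ± 0.44 at P7 (limma, adjusted p = 0.0113 and 0.00473), where 16.2% and 12.3% of the 302 were called higher. At P7 its 2 AT2 values, 847 and 1239, lay above the EC values of 243 and 321, and the call was lost without AT2 P7 replicate 2 or EC P7 replicate 1 (1.60 to 2.15). At E16.5 EC was not above background, so the AT2 level was at least 2.84-fold higher. With all values raised to 1 common floor at the highest background limit (95.1), the E16.5 difference became 0.39 and lost its call, as it did without AT2 E16.5 replicate 1 or EC E16.5 replicate 2 (1.33 to 1.87). At P14 the AT2 values lay above both EC values, with a difference of 1.23 ± 0.44 that did not pass (limma, adjusted p = 0.0552), and without EC P14 replicate 2 it was 2.12 (adjusted p = 0.000704). At P28 it was 0.74 ± 0.40 (adjusted p = 0.179).

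The member shared by both loci, miR-29b-3p, was higher in AT2 cells by 1.14 ± 0.42 at E16.5, 1.85 ± 0.42 at P7 and 1.38 ± 0.42 at P14 (limma, adjusted p = 0.0423, 0.00416 and 0.0283), where 2.65% of the 302 were called higher at P14. The 2 AT2 samples of P7 stood at 405 and 486 against 116 and 129.65 in EC, and this call held with any 1 sample left out. At E16.5 EC was not above background, the AT2 level was at least 1.93-fold higher, and the call was lost with any of 10 samples left out and at the common floor (0.022). The P14 call was lost without EC P14 replicate 1 (0.60), without either AT2 P14 sample, and within IDs beginning with 16, where the difference was 0.60 (adjusted p = 0.512). At E18.5 and P1, each with 1 EC sample, miR-29b-3p differed by -0.040 ± 0.52 and 1.02 ± 0.52 and miR-29a-3p by 1.29 ± 0.54 and 1.75 ± 0.54, and none of these passed (limma, adjusted p = 0.951, 0.241, 0.145 and 0.0619, with 2.65% and 7.28% of the 302 called in either direction). The EC sample of E18.5 had 18 counts of miR-29b-3p and 13 of miR-29a-3p against a limit of 12. Both E18.5 differences therefore rest on EC values near background.

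For miR-29c-3p the single ages gave values of either sign. Before birth its AT2 minus EC differences were -0.92 ± 0.36 (E16.5) and -0.14 ± 0.43 (E18.5), and after birth -1.04 ± 0.43 (P1), -0.33 ± 0.36 (P7), 0.41 ± 0.36 (P14) and -0.22 ± 0.32 (P28). The lowest adjusted p among them was 0.0524 (limma). At E18.5 the EC sample had 13 counts of miR-29c-3p against a limit of 12. At P28 the AT2 values of 1405 to 1933 overlapped the EC values of 1899 and 1935. The scalings tried turned its direction at E16.5, E18.5, P7 and P28.

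**Figure D3:**
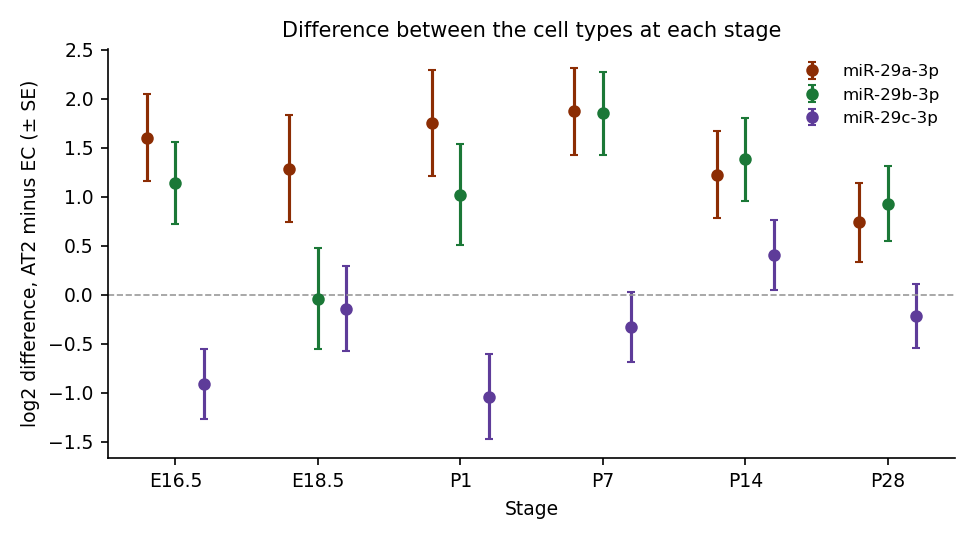
Difference between the cell types (log2, AT2 minus EC, from limma, bars ± SE) at each age for the 3 members. Values above 0 are higher in AT2 cells, where miR-29a-3p stands between 0.74 and 1.87 at every age, and miR-29c-3p lies below 0 except at P14.

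Ratios between members inside a sample do not depend on how that sample was scaled, and so show whether the members differed in the same way. The sample ratio of miR-29a-3p to miR-29c-3p, which differ by 1 base and come from different chromosomes, ran from 0.113 in EC E16.5 replicate 2 to 9.27 in AT2 P1 replicate 1. In AT2 cells its mean was 1.10 at E16.5 and 2.69 at E18.5, was 8.44 at P1 and then stood at 4.02 (P7), 3.30 (P14) and 2.34 (P28). In EC it was 0.191, 1.00, 1.22, 0.873, 1.87 and 1.21 at those ages, with the miR-29a-3p of E16.5 not above background. The EC value of 1.00 at E18.5 is 13 counts over 13 counts against a limit of 12. Being near background, it is no measure of the ratio. The AT2 mean stood highest at P1 and was lower at each age after it. The EC mean at P14 combines 1.05 in replicate 1 with 3.31 in replicate 2.

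Across 9 specimen IDs found in both cell types, the log2 ratio of miR-29a-3p to miR-29c-3p was higher in the AT2 sample of all 9, by a mean of 1.77 (1.48 ± 0.98 against -0.29 ± 1.37, SD). This gave p = 0.00391 in an exact two-sided sign-flip permutation test, the smallest p the design allows, and an adjusted p of 0.0352 over the 9 ratio tests made. For miR-29b-3p to miR-29c-3p the difference was 1.41 and 8 of 9 IDs were higher in AT2 cells (exact sign-flip permutation test, p = 0.0117, adjusted p = 0.0357). The ratio of miR-29a-3p to miR-29b-3p differed by 0.37, in 7 of 9 IDs, and did not pass after adjustment (exact sign-flip permutation test, p = 0.0469, adjusted p = 0.0603). In an alternative added after the data were seen, leaving out the 3 EC samples named above, the first 2 differences were 1.99 and 1.65. Neither passed (exact sign-flip permutation tests, adjusted p = 0.102 and 0.1125). For miR-29a-3p to miR-29c-3p, the smallest p that 6 IDs allow no longer passes after adjustment. The ratio of miR-29b-3p to miR-29c-3p did not reach that smallest p. Its ID of E18.5 ran the other way, with log2 ratios of 0.345 (AT2 replicate 1) and 0.466 (EC replicate 1). That EC sample had 13, 18 and 13 counts of miR-29a-3p, miR-29b-3p and miR-29c-3p against a limit of 12. Its ratios are therefore near background in both tests. In another added alternative, samples below background were raised to their limits. The first 2 differences were then 1.75 and 1.36 and passed (exact sign-flip permutation tests, adjusted p = 0.0352 and 0.0357).

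The ratio of miR-29a-3p to miR-29b-3p could not be followed in EC from before birth. In both E16.5 samples both members were not above background, with 12 to 16 counts, each under the limit of its sample, and at E18.5 they had 13 and 18 counts against a limit of 12. A ratio of 2 background signals lies near 1 whatever the levels, so the group means of 1.07 (E16.5) and 0.724 (E18.5) are no measure of the early ratio. The test of 6 late against 3 early samples gave a difference of 1.42 (exact permutation test, two-sided, p = 0.0119, the smallest possible, adjusted p = 0.0357, and 0.0714 with background subtracted), and no change of the ratio with age is drawn from it. From P1 onward, where both members were above background, the EC means were 1.99 (P1), 2.27 (P7), 2.78 (P14) and 2.49 (P28). In AT2 cells the same ratio ran from 1.47 at E16.5 to 3.30 at P1 and 2.18 at P28, and the late minus early difference of 0.49 did not pass after adjustment (exact permutation test, p = 0.0424, adjusted p = 0.0603). The remaining differences with age also did not pass, those in EC again with miR-29a-3p and miR-29b-3p of E16.5 not above background, with miR-29a-3p to miR-29c-3p at 0.81 in AT2 cells and 1.92 in EC, and miR-29b-3p to miR-29c-3p at 0.32 and 0.50 (exact permutation tests, adjusted p = 0.0603, 0.0603, 0.355 and 0.571).

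**Figure D4:**
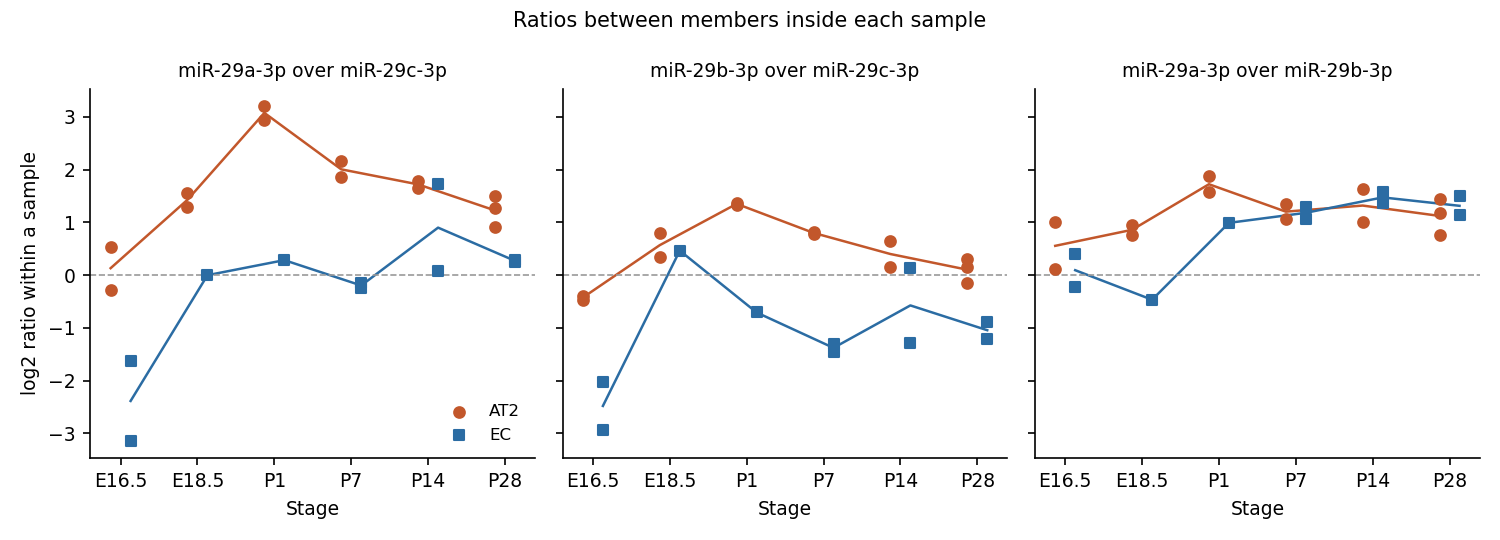
Log2 ratio between 2 members inside each sample against age (AT2 circles, EC squares, lines through means, dashed line at equal values), with each sample as 1 point. In the left panel AT2 cells peak at P1 with ratios of 9.27 and 7.69 before the log, and in the right panel both cell types lie above 0 from P1 onward. Ratios of EC at E16.5 include values not above background, and those of EC at E18.5 rest on 13 and 18 counts against a limit of 12.

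Ordered by geometric mean, miR-29a-3p ran from 40.4 in EC at E16.5 to 3860 in AT2 cells at P28 over the 12 groups. Of its 11 gaps between neighbouring groups, 4 were smaller than the pooled SD of 0.44 on the log2 scale, namely EC E18.5 to AT2 E16.5, AT2 E18.5 to EC P7, AT2 P1 to AT2 P14 and AT2 P14 to EC P28. EC of P7 thus stood at the level that AT2 cells had at E18.5. The order for miR-29b-3p ran from 37.7 in EC at E16.5 to 1771 in AT2 cells at P28, with 5 of 11 gaps below its moderated SD of 0.42. For miR-29c-3p it ran from 93.1 in AT2 cells at E18.5 to 1917 in EC at P28, with 7 of 11 gaps below its moderated SD of 0.36. The top 2 groups of miR-29c-3p, AT2 and EC of P28, were not separated by more than that spread.

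Summed over the 3 members, the family took 0.174% of the microRNA counts in AT2 E16.5 replicate 1 (95% Wilson interval 0.159 to 0.191) and 4.22% in AT2 P28 replicate 2 (4.14 to 4.30). In AT2 P28 replicate 3 its share was 1.45%, and 3.90% with MIMAT0003484 left out of the total, next to 3.59% in replicate 1. In EC the share ran from 0.0664% (0.0532 to 0.0828) in E16.5 replicate 1 to 1.68% (1.64 to 1.73) in P28 replicate 2. EC P14 replicate 2 stood at 1.09% and EC P14 replicate 1 at 0.223%. These intervals cover counting error only, and background was not taken out of the shares. In EC E16.5 replicate 1, 16 and 12 of the 78 family counts were miR-29a-3p and miR-29b-3p, neither above background.

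Across samples miR-29a-3p and miR-29b-3p had the closest courses, with a Pearson r of 0.970 over 23 samples on the log2 scale, against 0.724 for miR-29a-3p with miR-29c-3p and 0.765 for miR-29b-3p with miR-29c-3p. In AT2 cells alone (n = 13) these were 0.972, 0.861 and 0.932, and in EC alone (n = 10) 0.965, 0.817 and 0.799. The samples share a course with age and 1 scaling each, so the coefficients are a description. By the same measure against the mean of the members, the most similar tested microRNAs over 23 samples were MIMAT0000515 (r = 0.926) and MIMAT0000531 (r = 0.895), which were also the 2 most similar in EC alone (0.914 and 0.931). In AT2 cells alone they were MIMAT0004186 (r = 0.977) and MIMAT0000128 (r = 0.973). The files do not pair these identifiers with names.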

How the data were processed

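Total RNA of sorted cells was prepared with the nCounter mouse miRNA kit, per the labels' protocols, and the submitters' processing notes name the build mm10. How values were normalized is not given in the sources used here. Values as deposited are a signal: in each sample they are whole counts times 1 factor. Of 13861 values checked, 13861 were whole within 0.1 count. The check left out the 14 ERCC control rows and values that the authors' table holds at 1 in 9 columns. The control rows were read as counts without the factor. The factor, 0.296 to 7.93, also multiplies background in the microRNA rows. Precision is set by 26640 to 571706 microRNA counts and 1 to 3 samples per group.

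The main test was limma 3.58.1 (R 4.3.3, intensity trend) on log2(value + 1), which understates changes of low microRNAs. It used 12 group means over 23 samples, two-sided, Benjamini-Hochberg adjusted over 302 microRNAs at 0.05. On simulated counts for 302 microRNAs it recovered 73% of 2-fold and 100% of 4-fold changes in AT2 late against early. It recovered 51% and 96% in EC, and 94% and 100% between cell types. The simulation gave all microRNAs the same dispersion and added no background, so these shares do not cover values near background, as in early EC. Ratio tests were exact permutation tests. Cell types share 9 specimen IDs in their titles, and with the ID as a block the consensus correlation was 0.231. Folds and bounds are between geometric means, with samples below background set to their limit.

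Alternatives were edgeR 4.0.16 and DESeq2 1.42.0 on the recovered counts, other scalings, pseudocount 10, no filter, no trend, sample weights, background subtraction, a common floor, ID blocks and left-out samples. Added after the data were seen were the number that opens the ID (as covariate and within each) the fits and ratios without AT2 P28 replicates 1 and 3, and the ratios without 3 EC samples and with samples below background raised to their limits. The members, lists and alternatives were chosen with earlier results of these data known. Named lists (cell type markers, other miR-29 arms, matrix and let-7 microRNAs) matched 0 of the panel's identifiers and were not tested. The text names the 3 members and, by correlation, 2 of the 3 most similar microRNAs over each set of samples.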

Additional observations from a re-analysis of the deposited data

How the results depend on the processing

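The late minus early changes of the 3 members in AT2 cells and of miR-29a-3p and miR-29c-3p in EC, and the AT2 minus EC differences of miR-29a-3p and miR-29b-3p, kept direction and call under all 17 alternatives and with any 1 sample left out. The specimen ID as a replicate block changed no call among the 12 comparisons of members (AT2 minus EC 1.39, 1.01 and -0.38 for miR-29a-3p, miR-29b-3p and miR-29c-3p). Causes of the changes below were not tested, apart from smaller designs raising the smallest exact p and the adjustment that the ratio tests share.

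In EC the late minus early change of miR-29b-3p was 0.80 within IDs of 15. Its AT2 minus EC difference of that change was 1.40 at the common floor, 1.93 within IDs of 15, -0.60 within IDs of 16, 1.16 without 3 EC samples and -0.11 to 1.10 with 1 sample left out. For miR-29a-3p that difference was 0.44 at the floor, 0.11 at a common median, 0.34 within IDs of 15, 0.13 without 3 EC samples and -0.83 to 0.13 with 1 left out. The AT2 minus EC difference of miR-29c-3p was 0.16 with DESeq2, -0.036 with edgeR, -0.024 at a common median, -0.28 with background subtracted, -0.37 with no trend (limma, adjusted p = 0.0544), -0.38 with quantile normalization, 0.42 scaled to the microRNA total, -0.23 and -0.46 within IDs of 15 and 16, -0.34 without 2 AT2 samples, -0.22 without 3 EC samples and -0.46 to -0.24 with 1 left out.

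The EC late minus early difference in the ratio of miR-29a-3p to miR-29b-3p lost its call with background subtracted (1.43), without 2 AT2 samples (1.42), without 3 EC samples (1.40) and in 16 of 23 fits with 1 sample left out (1.23 to 1.67). In AT2 cells miR-29a-3p to miR-29b-3p (0.53) and to miR-29c-3p (0.84) passed with pseudocount 10. AT2 minus EC, the ratio to miR-29c-3p was 1.96 and 1.99 for miR-29a-3p and 1.49 and 1.65 for miR-29b-3p without 2 AT2 and without 3 EC samples, and 1.70 for miR-29b-3p with background subtracted. All of these lost the call, as did 14 and 16 of 23 fits with 1 sample left out (1.63 to 1.99 and 1.26 to 1.60). The EC ratio of miR-29b-3p to miR-29c-3p ran from -0.22 to 1.48.

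Differences at single ages that were not called changed sign as follows, AT2 minus EC unless stated. At E18.5 miR-29b-3p was 0.54 with DESeq2, 0.40 with edgeR, 0.27 at a common median, 0.22 with background subtracted, 0.79 scaled to the microRNA total and -0.16 to 0.083 with 1 sample left out, and miR-29c-3p was 0.48, 0.32, 0.17, 0.19 and 0.68 under the first 5 of these and 0.053 with quantile normalization. For miR-29c-3p, DESeq2, edgeR, the common median and the microRNA total gave 0.41, 0.36, 0.19 and 1.03 at P7 and 0.20, 0.019, 0.13 and 0.29 at P28, where the fit without 2 AT2 samples gave 0.012, and the total gave 0.14 at E16.5. From P1 to P7, miR-29a-3p in AT2 cells was 0.12 with the ID number as covariate, miR-29b-3p in AT2 cells was -0.16 to 0.30 with 1 sample left out, and miR-29c-3p in EC was -0.24 to 0.071.

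Calls at single ages or steps were lost without a change of direction under these alternatives (limma unless stated). For miR-29b-3p the AT2 minus EC call at E16.5 was lost at the floor, with edgeR, at a common median, without filter or trend and with pseudocount 10 (0.022 to 1.45). At P14 it was lost at the floor, with edgeR, background subtraction, quantile normalization, sample weights, the microRNA total and the ID number (0.60 to 2.11). The miR-29c-3p step to P28 in AT2 cells lost its call scaled to the total (1.08), within IDs of 16 (1.64) and without both AT2 P28 samples that stand apart (1.87). The miR-29b-3p step across birth in AT2 cells was lost scaled to the total (1.41). Calls were also gained, in 53 of 840 alternative fits at this level. The EC step from E18.5 to P1 stayed uncalled in 6 of 14 alternatives for miR-29c-3p (1.63 to 2.64) and 10 of 14 for miR-29a-3p (1.43 to 2.93). At P28 the miR-29b-3p difference, AT2 minus EC, was 0.93 (limma, adjusted p = 0.0771). It stayed uncalled in 10 of 17 alternatives (0.49 to 1.44).

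The number of microRNAs called moved by over 1.5 times as follows. AT2 minus EC called 110 at the common floor, 467 of 602 without the background filter and 133 within IDs of 16, against 203. AT2 late minus early called 86 at the floor against 155. EC late minus early called 59 scaled to the microRNA total, 72 at the floor, 72 with edgeR, 74 within IDs of 15 and 192 without the filter, against 28 higher and 84 lower. The test of different change with age called 47 at the floor, 31 without 3 EC samples, 12 with edgeR and 5 scaled to the total, against 19. DESeq2 was not run for differences among all ages. Low counts limit the EC values before birth most, with 12 to 18 counts for miR-29a-3p and miR-29b-3p.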
